A study of Arabidopsis thaliana with 12 samples.

Results

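*HB-2* (AT4G16780, also known as *ATHB2*), *HB4* (AT2G44910), *HAT1* (AT4G17460), *HAT2* (AT5G47370) and *HAT3* (AT3G60390) are *Arabidopsis thaliana* genes of class II of the homeodomain-leucine zipper (HD-ZIP) family. They were followed here as a set of 5 among the 38124 probe sets tested, and each was found by its locus. The platform annotation names 1 of them, *HAT2*, and the other 4 were named only through the study's own list of genes regulated by SD or by the PIFs. All 5 are on that list, and it was made from these arrays, so a count of calls in either of those comparisons, or in another that uses the same arrays, is no independent evidence about the set. No member has several probe sets, and none shares its values with another probe set. The family has 10 genes in the list used, and the other 5 (*HAT9*, *HAT14*, *HAT22*, *HB17* and *HB18*) have no named probe set and were not analysed here.

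RNA of whole seedlings was hybridized to 12 AraGene arrays, 3 biological replicates in each of 4 groups. The *pifq* mutant lacks the phytochrome-interacting factors PIF1, PIF3, PIF4 and PIF5 together, so the part of any single PIF cannot be told apart, and WT is Col-0. All seedlings spent their first 2 days in short days (SD, 8 h of white light of 85 µmol m-2 s-1 and 16 h of darkness). For the last day they either stayed in SD (*pifq* SD and WT SD) or were moved to continuous white light (*pifq* LL and WT LL), and they were sampled when 3 days old, at the end of the night (ZT24) or of the subjective night (CT24). A comparison is written with its first group over the second, and its log2 FC is the mean log2 signal of the first minus that of the second. A gene is said to have passed the test, or to have risen or fallen, at an adjusted p under 0.05 with a change of at least 1.5-fold.

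HD-ZIP proteins occur only in plants and join a homeodomain, which binds DNA, to a leucine zipper, through which they pair. Class II members act mainly as repressors of transcription. They are best known from vegetation shade, where a drop of red over far-red light inactivates phytochrome B, PIFs accumulate, and genes such as *HB-2* are switched on within minutes. Darkness likewise lets PIF proteins accumulate, so the end of a long night is a moment of high PIF abundance without any shade.

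The genes lie on chromosomes 2 to 5 of the TAIR10.1 assembly according to RefSeq. *HB-2* is at chr4:9449114-9450905 and *HAT1* on the same chromosome at chr4:9739518-9741234. *HB4* is at chr2:18517656-18519731, *HAT2* at chr5:19216271-19218007 and *HAT3* at chr3:22320580-22322661.

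Array medians lay between 5.0 and 5.12 on the log2 scale, and arrays of a group correlated with each other with a mean r of 0.966 to 0.982. Transcripts of the mutated genes *PIF1*, *PIF3* and *PIF5* fell in *pifq* under both conditions, with log2 FC between -4.06 and -1.61 in SD and between -3.40 and -2.02 in LL. *PIF4* has no named probe set. Of 18 organ markers, 4 have one. The root markers *PYK10*, a beta-glucosidase, and *EXPA7*, an expansin of root hairs, passed the test in none of the comparisons. *PDF1*, an epidermal marker, had mean log2 signals of 8.86 in *pifq* SD, 9.84 in *pifq* LL, 10.15 in WT SD and 10.12 in WT LL. *GLK2*, a regulator of chloroplast development, had a log2 FC of -0.66 for WT SD over WT LL and of 0.77 for *pifq* SD over WT SD, both past the test. *PDF1* fell in each comparison of *pifq* SD, with -1.29 over WT SD, -0.98 over *pifq* LL and -1.27 over WT LL. The part of either marker in the results below was not tested.

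*HB-2* had the largest change of the set. Its log2 signal was 8.39, 7.90 and 8.09 in WT SD, against 5.56, 5.49 and 5.61 in WT LL. In the mutant it was 5.50, 4.33 and 5.59 in *pifq* SD, against 5.48, 5.27 and 5.44 in *pifq* LL. The 3 WT SD arrays thus stood above the other 9 arrays, and *pifq* SD replicate 2 stood below all others. *HB-2* rose in WT SD over WT LL by 2.57 ± 0.28 on the log2 scale (± SE throughout, n = 3 arrays in each group), or 5.95-fold (limma, adjusted p = 0.000357). It fell by 2.99 ± 0.28 in *pifq* SD over WT SD, or 7.92-fold (adjusted p = 0.00062). In whole seedlings, fewer cells with the transcript and less transcript per cell cannot be told apart.

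*HB4*, which acts with *HAT3* and *HB-2* in shade elongation and in leaf polarity, followed the same order of groups at a smaller size. Its log2 signal was 6.86, 6.58 and 6.78 in WT SD, against 5.02, 4.94 and 5.31 in WT LL. In *pifq* SD it was 4.40, 4.73 and 4.75, against 5.16, 4.97 and 4.80 in *pifq* LL. All 3 WT SD arrays were above the other 9, and all 3 *pifq* SD arrays were below the other 9. The group means of *HB4* outside WT SD, from 4.63 to 5.09, lay near or below the array medians of 5.0 to 5.12. *HB4* rose in WT SD over WT LL by 1.65 ± 0.15, or 3.13-fold (limma, adjusted p = 0.000126), and fell by 2.11 ± 0.15 in *pifq* SD over WT SD, or 4.33-fold (adjusted p = 0.000138). It was the member with the smallest adjusted p in both comparisons, and both calls held without any 1 array.

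**Figure D1:**
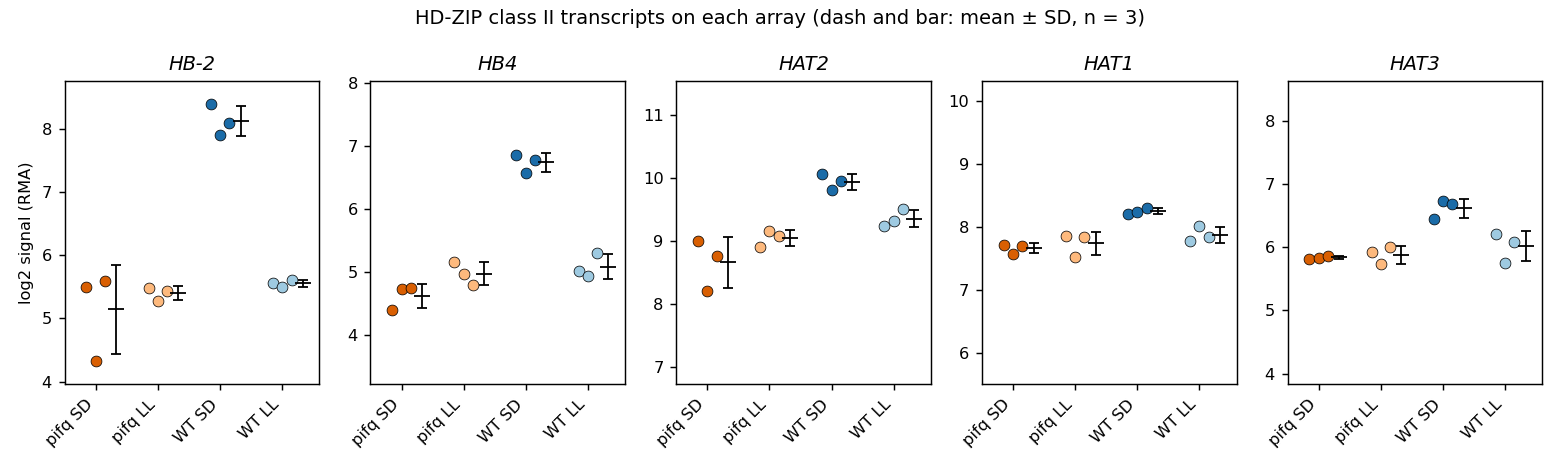
Log2 signal (RMA) of *HB-2*, *HB4*, *HAT1*, *HAT2* and *HAT3* in each of the 12 arrays, by group. Points are arrays, dashes are group means and bars are their SD (n = 3 arrays), and signals are not comparable between genes. For each gene the 3 WT SD arrays lie above the arrays of the other 3 groups.

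*HAT2*, an auxin-inducible member, fell in *pifq* SD over WT SD but did not pass the test for WT SD over WT LL. Its log2 signal was 10.06, 9.81 and 9.95 in WT SD, against 9.24, 9.31 and 9.50 in WT LL, so that the groups did not overlap. The difference of 0.59 ± 0.19, or 1.5-fold, did not pass the test (limma, adjusted p = 0.0906). The study, which used another test on these arrays, counts *HAT2* among the genes induced by both SD and the PIFs. In *pifq* SD it was 9.0, 8.21 and 8.77, against 8.90, 9.16 and 9.08 in *pifq* LL, with replicate 2 of *pifq* SD the lowest of the 12 arrays. Relative to WT SD, *HAT2* fell in *pifq* SD by 1.28 ± 0.19, or 2.42-fold (adjusted p = 0.00751). Without *pifq* SD replicate 2 the difference in WT did pass (limma, adjusted p = 0.0199), and *HAT2* still fell in *pifq* SD, by 1.05. The log2 FC in WT stayed 0.59, since that array enters it only through the spread estimated over all groups. Leaving out any 1 of the WT arrays instead gave an adjusted p from 0.130 to 0.239 in WT, which did not pass.

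*HAT3* had small differences, with little spread among the *pifq* SD arrays. Its log2 signal was 6.45, 6.74 and 6.68 in WT SD, against 6.21, 5.75 and 6.09 in WT LL. In *pifq* SD it was 5.82, 5.83 and 5.87, against 5.93, 5.73 and 6.0 in *pifq* LL. The WT SD arrays were again above all others, and the *pifq* groups overlapped. *HAT3* rose in WT SD over WT LL by 0.61 ± 0.14, or 1.52-fold (limma, adjusted p = 0.0249), and fell by 0.78 ± 0.14 in *pifq* SD over WT SD, or 1.72-fold (adjusted p = 0.0238). The rise lies just over the 1.5-fold requirement and lost its call without WT SD replicate 2 or 3 or WT LL replicate 2 or 3 (adjusted p from 0.0589 to 0.0948). The fall lost its call without WT SD replicate 2 or 3 or any 1 of the *pifq* SD arrays (adjusted p from 0.068 to 0.0996).

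*HAT1*, which also acts in brassinosteroid responses, had the smallest changes. Its log2 signal was 8.21, 8.24 and 8.30 in WT SD, against 7.78, 8.02 and 7.85 in WT LL. In *pifq* SD it was 7.72, 7.57 and 7.70, against 7.86, 7.53 and 7.85 in *pifq* LL. The WT SD arrays lay above the others without overlap, yet the difference of 0.37 ± 0.12 in WT did not pass the test (limma, adjusted p = 0.101). *HAT1* fell by 0.59 ± 0.12 in *pifq* SD over WT SD, or 1.5-fold (adjusted p = 0.0420). Leaving out any 1 array other than *pifq* LL replicate 2 ended this call (adjusted p from 0.0522 to 0.155).

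Over the set, 3 of 5 members (*HB-2*, *HB4* and *HAT3*) rose in WT SD over WT LL, where 3.16% of all probe sets rose. All 5 had their WT SD arrays above their WT LL arrays, against 13.8% of all probe sets, and all 5 had an unadjusted p under 0.05, against 19.7%. The median log2 FC of the members was 0.61, beside -0.01 over all probe sets. All 5 members fell in *pifq* SD over WT SD, against 0.847% of probe sets, and the arrays of all 5 lay below those of WT SD, against 6.71%. The median there was -1.28, beside 0.03 over all probe sets. Fitted on the arrays of *pifq* SD and WT SD alone, *HB4* was the 1 member still called there. That fit called far fewer probe sets in all, with 56 of 38124 falling, against 323 in the main fit. The other members had adjusted p of 0.0617 (*HB-2*), 0.124 (*HAT3*), 0.134 (*HAT2*) and 0.188 (*HAT1*) in it. Both comparisons use the same WT SD arrays and both entered the list that named 4 of the members.

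**Figure D2:**
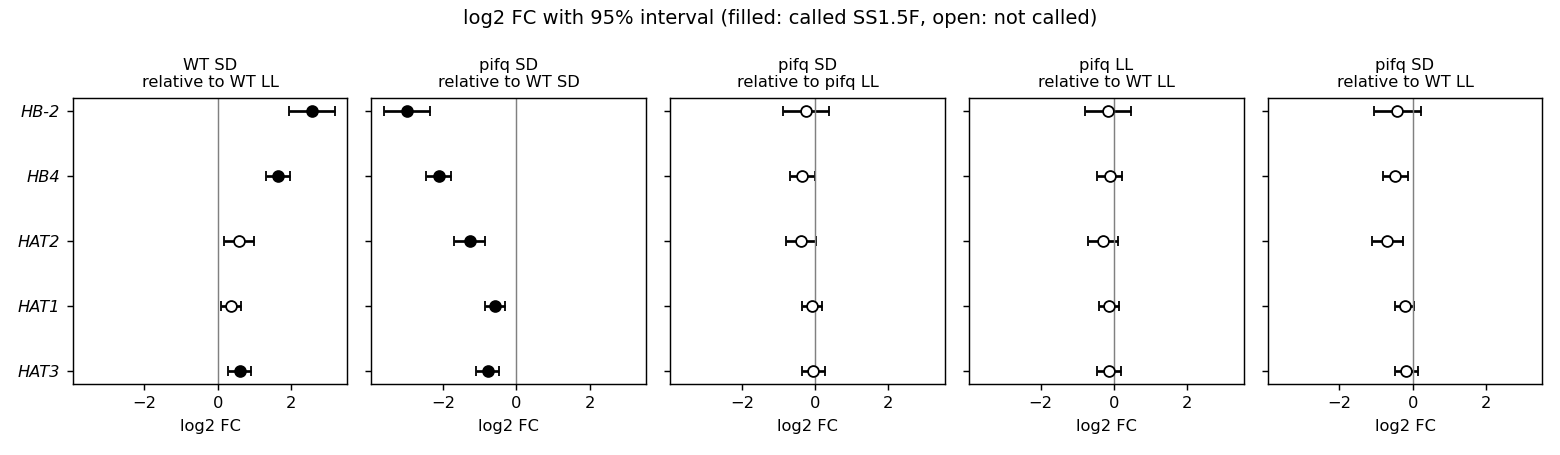
Log2 FC of the 5 genes in each comparison, from the limma fit, with 95% confidence intervals. Filled points passed an adjusted p of 0.05 and 1.5-fold. No gene passed for *pifq* SD over *pifq* LL, nor for *pifq* LL over WT LL.

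The order of the response was tested between neighbours, on the log2 ratio of both genes within each array. In WT the response to SD was larger for *HB-2* than for *HB4* by 0.92 and larger for *HB4* than for *HAT3* by 1.04. Each of these had p = 0.1 (exact two-sided permutation test, 3 against 3 arrays), which is the smallest value that this design allows, and 0.2 after Benjamini-Hochberg adjustment over 8 such tests. *HAT3* and *HAT2* differed by 0.02 (exact p = 1) and *HAT2* and *HAT1* by 0.22 (exact p = 0.3). The neighbours were set by the same values, and no pair could have passed in this design, so these p values do not show that any 2 members respond alike. For *pifq* SD over WT SD the order was *HB-2*, *HB4*, *HAT2*, *HAT3* and *HAT1*. The first 2 steps, of -0.87 and -0.84, again had the smallest possible exact p of 0.1, and the last 2, of -0.49 and -0.19, had an exact p of 0.2. The size of the steps that involve *HB-2* or *HAT2* depends on *pifq* SD replicate 2. Without that array the log2 FC was -2.58 for *HB-2*, -2.17 for *HB4*, -1.05 for *HAT2* and -0.78 for *HAT3*.

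Whether a response to the night remained without the 4 PIFs was asked in *pifq* SD over *pifq* LL. Its *pifq* SD arrays entered the list that named 4 of the members, so the counts below are not independent of it. None of the 5 members was called (limma), against 3.67% of all probe sets, and 1 member, *HB4*, had an unadjusted p under 0.05, against 18.0%, which is near the background. *HB4* had -0.35 ± 0.15 (95% interval -0.69 to -0.01, adjusted p = 0.259), with its *pifq* SD arrays below its *pifq* LL arrays, a pattern of 11.3% of probe sets. *HAT2* had -0.38 (interval -0.80 to 0.03) and *HB-2* had -0.25 (-0.89 to 0.38). *HAT1*, with -0.08 (-0.35 to 0.19), and *HAT3*, with -0.05 (-0.36 to 0.27), lay near 0. The *HB-2* value rests on *pifq* SD replicate 2, without which it was 0.15. Without the same array the value of *HAT2* was -0.16.

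In continuous light no difference was detectable for any member. None of the 5 was called by limma in *pifq* LL over WT LL, against 0.0184% of all probe sets (7 probe sets), and 0 had an unadjusted p under 0.05, against 6.24%. The log2 FC were -0.16 for *HB-2* (95% interval -0.79 to 0.47), -0.11 for *HB4* (-0.45 to 0.23), -0.14 for *HAT1* (-0.41 to 0.13), -0.30 for *HAT2* (-0.72 to 0.11) and -0.13 for *HAT3* (-0.45 to 0.19). All 5 values were below 0, and the arrays of *HB-2* and *HAT2* did not overlap, a pattern found on the lower side for 5.57% of probe sets. With 3 arrays per group, the interval still allows a lower level of *HAT2* in *pifq* LL by up to 0.72.

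The difference of the response to SD between *pifq* and WT was tested as an interaction term. It passed for *HB-2*, with -2.83 ± 0.40 (limma, adjusted p = 0.0361), and for *HB4*, with -2.0 ± 0.22 (adjusted p = 0.0129), that is for 2 of 5 members, where 0.136% of all probe sets passed with a value below 0. Both were named only through the list of regulated genes, which was made from arrays that this term also uses, so nothing is read from that contrast. *HAT2* had -0.97 ± 0.26 (adjusted p = 0.320), *HAT3* had -0.65 ± 0.20 (adjusted p = 0.447) and *HAT1* had -0.45 ± 0.17 (adjusted p = 0.612), and these did not pass. All 5 had an unadjusted p under 0.05, as did 6.58% of all probe sets, with the same limit. The *HB4* call was lost without WT SD replicate 3 or WT LL replicate 1 or 2 (adjusted p from 0.0566 to 0.0657), and that of *HB-2* without any 1 array other than *pifq* SD replicate 2 (adjusted p from 0.0514 to 0.126).

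**Figure D3:**
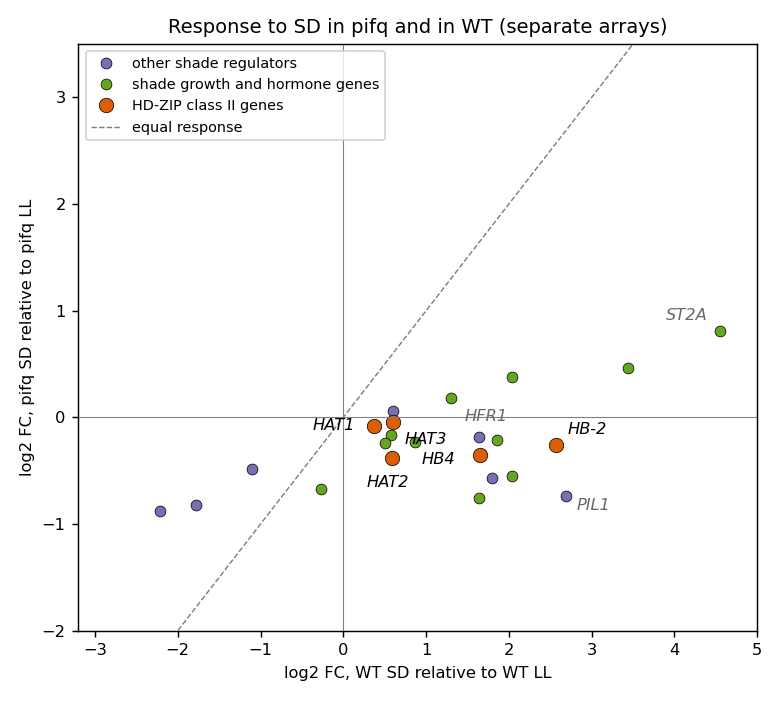
Log2 FC of *pifq* SD over *pifq* LL (vertical) against that of WT SD over WT LL (horizontal), which share no arrays, for the 5 genes and the measured members of the lists of other shade regulators and of shade growth and hormone genes. The 5 genes lie at 0.37 to 2.57 on the horizontal axis and at -0.38 to -0.05 on the vertical one, below the dashed line of equal response. Most genes shown are measured only through the list of regulated genes, which used arrays of both axes and favours called genes. The place of the 5 genes below the line is therefore no independent evidence.

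The level in *pifq* at the end of the night was also set against WT LL seedlings, which had no night on their last day. This comparison uses none of the WT SD arrays. Its *pifq* SD and WT LL arrays did enter the list that named 4 of the members, so the counts below are not independent of it. Here no member was called (limma), against 5.41% of all probe sets, and 2 had an unadjusted p under 0.05, against 19.6%. All 5 means were nonetheless lower in *pifq* SD. *HAT2* had -0.69 ± 0.19 (95% interval -1.10 to -0.27, adjusted p = 0.0545), a 1.61-fold lower level just short of the threshold. *HB4* had -0.47 ± 0.15 (-0.81 to -0.13, adjusted p = 0.110). For these and for *HAT1*, with -0.22, all *pifq* SD arrays lay below all WT LL arrays, which is 3 of 5 members against 13.0% of all probe sets. *HB-2* had -0.41 ± 0.28 and *HAT3* had -0.18 ± 0.14, with overlapping arrays. The epidermal marker *PDF1* had -1.27 in the same comparison, and its part was not tested. Without *pifq* SD replicate 2 the value of *HB-2* was -0.01 and that of *HAT2* was -0.46.

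The contribution of the 4 PIFs to the response, taken as 100 times WT SD minus *pifq* SD, divided by WT SD minus WT LL (means of log2 signal), was 116% for *HB-2*, 128% for *HB4* and 129% for *HAT3*. With each array left out in turn it ranged from 100.3 to 125% for *HB-2*, from 120 to 134% for *HB4* and from 112 to 166% for *HAT3*. For *HAT1* (159%) and *HAT2* (217%) the denominator is a difference that did not pass the test. A value over 100% states that the mean of *pifq* SD was below that of WT LL, and both differences share the WT SD arrays.

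Among replicates, 1 array stood out. In *pifq* SD replicate 2, *HB-2* was 0.81 below its group mean, which is larger in size than for 95.7% of the probe sets on that array, and *HAT2* had a deviation of -0.45, larger than for 81.7%. *HB4*, *HAT1* and *HAT3* deviated there by only 0.10, -0.09 and -0.01. That array had the lowest weight of the 12 in limma's array weights (0.448, where the highest was 1.87). Over the 12 arrays the deviations of *HB-2* and *HAT2* from their group means had a Pearson r of 0.83, and of 0.25 without that array. For *HB-2* and *HB4* r was -0.02, and 0.58 without it. These r describe arrays whose signals were all computed with RMA, and whether any were hybridized together is not labelled.

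**Figure D4:**
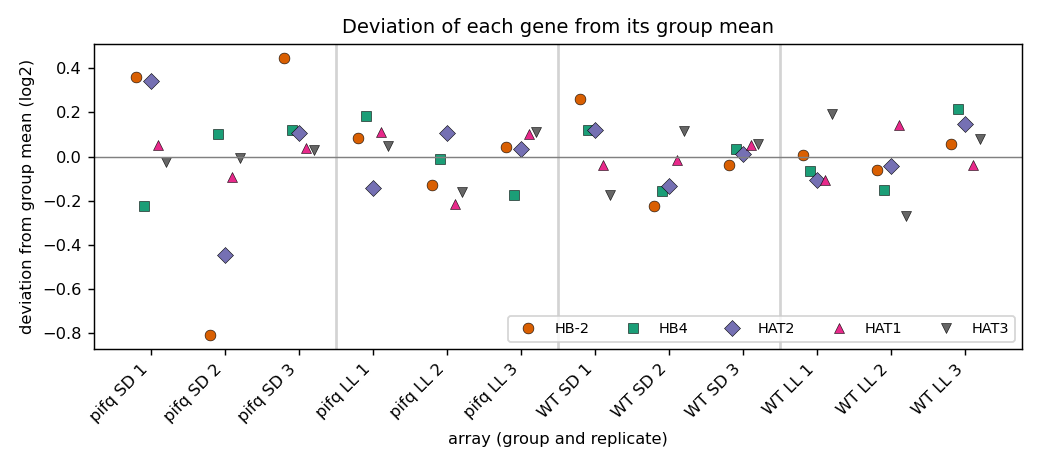
Deviation of each of the 5 genes from its group mean (log2 signal) on each array, by group and replicate. *HB-2* and *HAT2* in *pifq* SD replicate 2, at -0.81 and -0.45, stand apart from the other 3 genes on that array.

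The likeness of patterns was described by Pearson's r of log2 signal over the 12 arrays, among 17422 named genes. The 12 arrays fall into 4 groups, so r mostly reflects the group means, and 1032 probe sets are named only because the study called them. The genes most like *HB-2* were AT5G11970 and AT4G16670 (r = 0.984 for each) and *AGP15*, an arabinogalactan protein (0.983). Those most like *HB4* were *PRA1.B6*, a member of the prenylated Rab acceptor family (0.980), *SAUR28*, of the small auxin-up RNA family (0.974), and *VLN2*, a villin that bundles actin (0.973). *HAT2* was most like AT2G20835 (0.981), AT3G07010 (0.975) and *COR413IM1*, a cold-regulated protein of the chloroplast envelope (0.967). *HAT3* was most like AT1G67590 (0.981), *NIT1*, a nitrilase (0.948), and *PRA1.B6* (0.935), and *HAT1* was most like AT1G76240 (0.942), *BRG3* (0.941) and *AGP9*, another arabinogalactan protein (0.939).

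The members were not each other's nearest neighbours. Their pairwise r ran from 0.77 for *HAT2* and *HAT3* to 0.95 for *HB-2* and *HB4*. In the ranking by likeness to *HB-2*, *HB4* took place 52, and in that for *HB4*, *HB-2* took place 31. The member closest to *HAT1* was *HB-2* (place 33), the one closest to *HAT2* was also *HB-2* (place 89), and the one closest to *HAT3* was *HB4* (place 24).

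In the other HD-ZIP classes few genes have a named probe set. Of 17 listed class I genes 2 were measured, both named only by the study's list of regulated genes. *HAT7* rose in WT SD over WT LL by 1.56 and fell by 1.33 in *pifq* SD over WT SD, and *HB52*, which acts in root growth, rose by 1.20 and fell by 1.49. *HAT7* also passed the interaction test (-1.19, adjusted p = 0.0403). Of 5 class III genes 1 was measured, *PHV*, which specifies the upper side of leaves, with -0.23 in WT SD and -0.06 in *pifq* SD, neither of which passed. *ZPR1*, 1 of 4 LITTLE ZIPPER genes and an inhibitor of class III proteins, fell in *pifq* SD by 1.03 (limma, adjusted p = 0.0457) and had 0.76 in WT SD, which did not pass (adjusted p = 0.0594). No class IV gene and no TOPLESS corepressor has a named probe set.

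Of 12 other transcriptional regulators of shade responses 7 were measured (2 named by the platform), of which 4 rose and 3 fell in WT SD over WT LL, where 3.16% of all probe sets rose and 3.43% fell. Among the same 7, 4 fell and 3 rose in *pifq* SD over WT SD, against 0.847 and 0.635%. The other 5 are measured here only because the list of regulated genes names them, which favours called genes. Of the 2 that the platform names, 1 rose and 1 fell in each comparison. *PIL1* and *HFR1*, atypical bHLH proteins of the shade response, had log2 FC of 2.69 and 1.64 in WT SD, and in *pifq* SD they had -4.03 and -2.78. In the opposite direction, *PIF7*, the PIF with a leading part in shade, fell in WT SD by 2.21 and rose in *pifq* SD by 1.00, and *PIF8* fell by 1.78 and rose by 0.87. *BEE1*, a bHLH factor of brassinosteroid responses, had 1.80 and -2.66, and *BBX25*, a B-box protein, had -1.10 and 0.75. *PIF7* and *PIF8* also fell in *pifq* SD over *pifq* LL, by 0.88 and 0.82, where no member of the HD-ZIP class II set was called.

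Of 16 listed growth and hormone genes of shade, 11 were measured (4 named by the platform). In WT SD over WT LL 8 rose and none fell, with a median log2 FC of 1.64. Of all probe sets 3.16% rose and 3.43% fell there, with a median of -0.01. In *pifq* SD over WT SD 8 fell and none rose, with a median of -1.77. Of all probe sets 0.847% fell and 0.635% rose there, with a median of 0.03. The 7 others are measured only through the list of regulated genes, so these counts and medians are of genes favoured for being called. Of the 4 that the platform names, 3 rose in WT SD and 3 fell in *pifq* SD. *XTH15*, a cell wall xyloglucan enzyme, had a log2 FC of 3.44 in the first and -3.31 in the second comparison, and *CKX5*, which degrades cytokinin, had 1.85 and -2.06. *FHL*, which helps import phytochrome A into the nucleus, had 2.04 and -1.77. *IAA19*, an auxin response repressor, was the only one of the 11 to fall in *pifq* SD over *pifq* LL (by 0.76), and *ST2A* the only one to rise there (by 0.81).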

How the data were processed

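The authors deposited 1 column of log2 signals per array, computed with RMA per the labels. Its version is not given in the sources read. They were used without further scaling. Of 38408 probe sets, 98 controls and 186 dimmer probe sets of a gene already represented were left out. The platform names 1 gene for 16391 of the rest, and 1032 were named only through the study's list of regulated genes, of which 1999 rows are held. The remaining 38124 were fitted with limma 3.58.1 (R 4.3.3), with 1 mean per group over 12 arrays and eBayes. Called means a Benjamini-Hochberg adjusted p under 0.05 over all probe sets and at least 1.5-fold. The error-weighted ANOVA named in the study's methods was not run. No scan date or batch is labelled, and the small number of arrays limits the precision. Columns of the study's own fold changes were not used.

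Members, gene lists and tests were chosen with earlier results of these data known. Named genes are the members, the mutated *PIF* genes, the 3 genes most like each member, and up to 4 called genes per list with the smallest adjusted p in WT SD over WT LL or in *pifq* SD over WT SD. *PHV*, *IAA19* and the markers were named outside that rule, after their values were seen, as were genes not called. Alternatives were other normalizations, filters, variance models, fold requirements, a replicate block and fits without each array. The fit was tested on simulated data. Promoter sequences were not analysed. Tables and figures used Python 3.11.15, pandas 2.3.3, numpy 2.4.6, scipy 1.17.1 and matplotlib 3.10.9.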

Additional observations from a re-analysis of the deposited data

Results flagged for a closer look

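The response to SD differed between *pifq* and WT for *HB-2*, with an interaction log2 FC of -2.83 ± 0.40 (limma, adjusted p = 0.0361), and for *HB4*, with -2.0 ± 0.22 (adjusted p = 0.0129). Each was picked out because the test of the difference itself passed. Both were named only through the list of regulated genes, made from arrays that this term also uses, so the pass is no independent evidence. *HB-2* was higher in 3 of 3 WT SD arrays than in every WT LL array, whereas its *pifq* SD and *pifq* LL arrays overlapped. *HB4* was higher in 3 of 3 WT SD arrays than in every WT LL array, and lower in 3 of 3 *pifq* SD arrays than in every *pifq* LL array. The *HB-2* term lost its call without any 1 array other than *pifq* SD replicate 2 (adjusted p from 0.0514 to 0.126), and the *HB4* term without WT SD replicate 3 or WT LL replicate 1 or 2 (adjusted p from 0.0566 to 0.0657).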

How the results depend on the processing

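The number of members that rose in WT SD over WT LL (3) ranged from 2 to 4 without each array and under the other settings. In *pifq* SD over WT SD 5 fell. A fit on only the arrays compared called 1, where 56 of all 38124 probe sets fell, against 323 in the main fit. A requirement of at least 2-fold called 3, where 172 of all probe sets fell, and leaving out 1 array gave 3 to 5. For the difference of the response 2 passed, and leaving out 1 array gave 0 to 2. In *pifq* SD over WT LL none passed, but 1 (*HAT2*) did after quantile normalization, without the dimmest probe sets (the lowest 0.25 of them by mean signal), with a trended and robust variance, with array weights and with identical probe sets counted once, and leaving out 1 array gave 0 to 1. In *pifq* SD over *pifq* LL and in *pifq* LL over WT LL the count was 0 throughout. The log2 FC in *pifq* SD over *pifq* LL changed sign for *HB-2* without *pifq* SD replicate 2 (0.15, range -0.48 to 0.15 over the arrays left out) and for *HAT3* without *pifq* LL replicate 3 (0.011, range -0.12 to 0.011). Of 360 member values without 1 array, 322 kept direction and side of the threshold, 34 lost the call, 2 gained it and 2 changed sign. Of 295 under other settings, 279 kept both, 10 lost the call and 6 gained it. The cause was not tested. Replicate numbers were not used as pairs in the main fit. Deviations of same-numbered arrays correlated by -0.07 to 0.05 in the comparisons other than *pifq* SD over WT SD. In *pifq* SD over WT SD they correlated by 0.147, 0.348 and 0.080, and those of different-numbered arrays by -0.23 to 0.12. These values give no reason to ignore the numbers there. With the replicate block 4 of 5 members fell in that comparison, and *HAT1* lost its call (adjusted p = 0.0875). Of all probe sets 274 fell with the block, against 323 in the main fit. No member has several probe sets, so averaging them gave no value. With 3 arrays per group, calls of changes near 1.5-fold, such as those of *HAT2* and *HAT3* in WT SD over WT LL and of *HAT1* in *pifq* SD over WT SD, changed with the setting or the array left out.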
